A study of Homo sapiens with 3 samples.

Results

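Mitochondrial complex I (NADH:ubiquinone oxidoreductase) is the entry enzyme of the respiratory chain. The genes described here were all rows of the deposited gene table whose symbol begins with NDUFA, NDUFB, NDUFC, NDUFS or NDUFV followed by a digit, and NDUFAB1. This rule found 40 of 23284 genes, and the same genes had 68 of 41138 isoforms. Of the 40, 37 encode subunits of complex I and 3 do not: NDUFA4, which is now assigned to complex IV (cytochrome c oxidase), its paralog NDUFA4L2, and the readthrough NDUFC2-KCTD14. Assembly factors named NDUFAF do not match the rule.

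Complex I passes electrons from NADH through a flavin and a chain of iron-sulfur clusters to ubiquinone, and pumps protons across the inner mitochondrial membrane. It is L-shaped. The peripheral arm in the matrix holds the NADH-oxidising N module and the quinone-reducing Q module, and the membrane arm holds the pumps in a proximal and a distal part. The catalytic core is conserved from bacteria; 7 of its subunits are encoded in the nucleus and the others in mitochondrial DNA, and the remaining nuclear genes encode accessory subunits. Nuclear-encoded subunits are made in the cytosol and imported, and the tubule cells of the kidney depend heavily on mitochondrial respiration. The mitochondrially encoded subunits were not analysed here.

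Polyadenylated RNA was sequenced from HEK293T cells, a line derived from human embryonic kidney, at 48 h after seeding on the siRNA mixture and with no TGF-beta given to any group. There was 1 library each for Arkadia siRNA, against the ubiquitin ligase gene RNF111, for ESRP2 siRNA, against an epithelial splicing regulator, and for a negative control siRNA. With 1 library per group there is no spread between replicates and no test, so every difference below is between libraries and cannot be told apart from variation between cultures or preparations. Values are the authors' FPKM (fragments per kilobase of transcript, scaled to library size) with the authors' confidence interval.

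The low FPKM values implied about 9.24 M reads with Arkadia siRNA, 12.7 M with ESRP2 siRNA and 12.3 M with control siRNA, so the Arkadia siRNA library was the shallowest. RNF111 stood at 1.15 FPKM with Arkadia siRNA, against 7.65 with ESRP2 siRNA and 6.38 with control siRNA. ESRP2 stood at 4.27 FPKM with ESRP2 siRNA, against 21.2 with Arkadia siRNA and 14.8 with control siRNA. Of 8 genes known from the HEK293 lineage, 7, 5 and 6 reached 1 FPKM in the Arkadia, ESRP2 and control siRNA libraries. Of 15 markers of blood, endothelium, liver, muscle, pancreas and fibroblasts, at most 2 did in any library, and their summed FPKM lay between 4.18 and 6.21.

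All 37 complex I subunit genes were expressed in every library. Together the 40 genes made up 1.07% of all summed FPKM with Arkadia siRNA, 0.849% with ESRP2 siRNA and 0.952% with control siRNA. For comparisons between libraries a gene needed an average of 1 FPKM or more over the 3 libraries, the status OK in each, and an isoform of 300 nt or longer. This left 11870 genes and 38 of the 40: the 37 subunits and NDUFA4. NDUFA4L2, known as a hypoxia-induced gene, stayed low at 0.520 FPKM with Arkadia siRNA, 0.453 with ESRP2 siRNA and 0.470 with control siRNA. The readthrough NDUFC2-KCTD14 was at 0.676, 0.455 and 0.986 FPKM in the same order of libraries, with a lower bound of 0 in each. Each of the 38 lay above the median of all 11870 genes in every library.

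Levels within the enzyme were spread widely between subunits. The median of the 38 genes was 161 FPKM with Arkadia siRNA, 106 with ESRP2 siRNA and 112 with control siRNA. The highest was 40.5 times the lowest with Arkadia siRNA, 41.6 times with ESRP2 siRNA and 28.2 times with control siRNA. NDUFB10, a disulfide-containing subunit of the distal membrane arm, had the highest mean level; it stood at 496 FPKM with Arkadia siRNA, 335 with ESRP2 siRNA and 543 with control siRNA. NDUFS5 and NDUFA12 came next in the mean. NDUFA10, which resembles nucleoside kinases, had the lowest mean, with 20.6, 14.9 and 19.2 FPKM in the Arkadia, ESRP2 and control siRNA libraries. Above it came NDUFS4, a gene often mutated in Leigh syndrome, with 36.5, 29 and 29.12 FPKM in the same order, and NDUFA6, which docks an acyl carrier protein, with 46.5, 41.6 and 31.0 FPKM. In none of the 3 libraries did 2 neighbours in the order of levels have intervals that lay apart, over 37 neighbouring pairs each; the intervals had a median half-width of 52.9% of the FPKM.

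**Figure D1:**
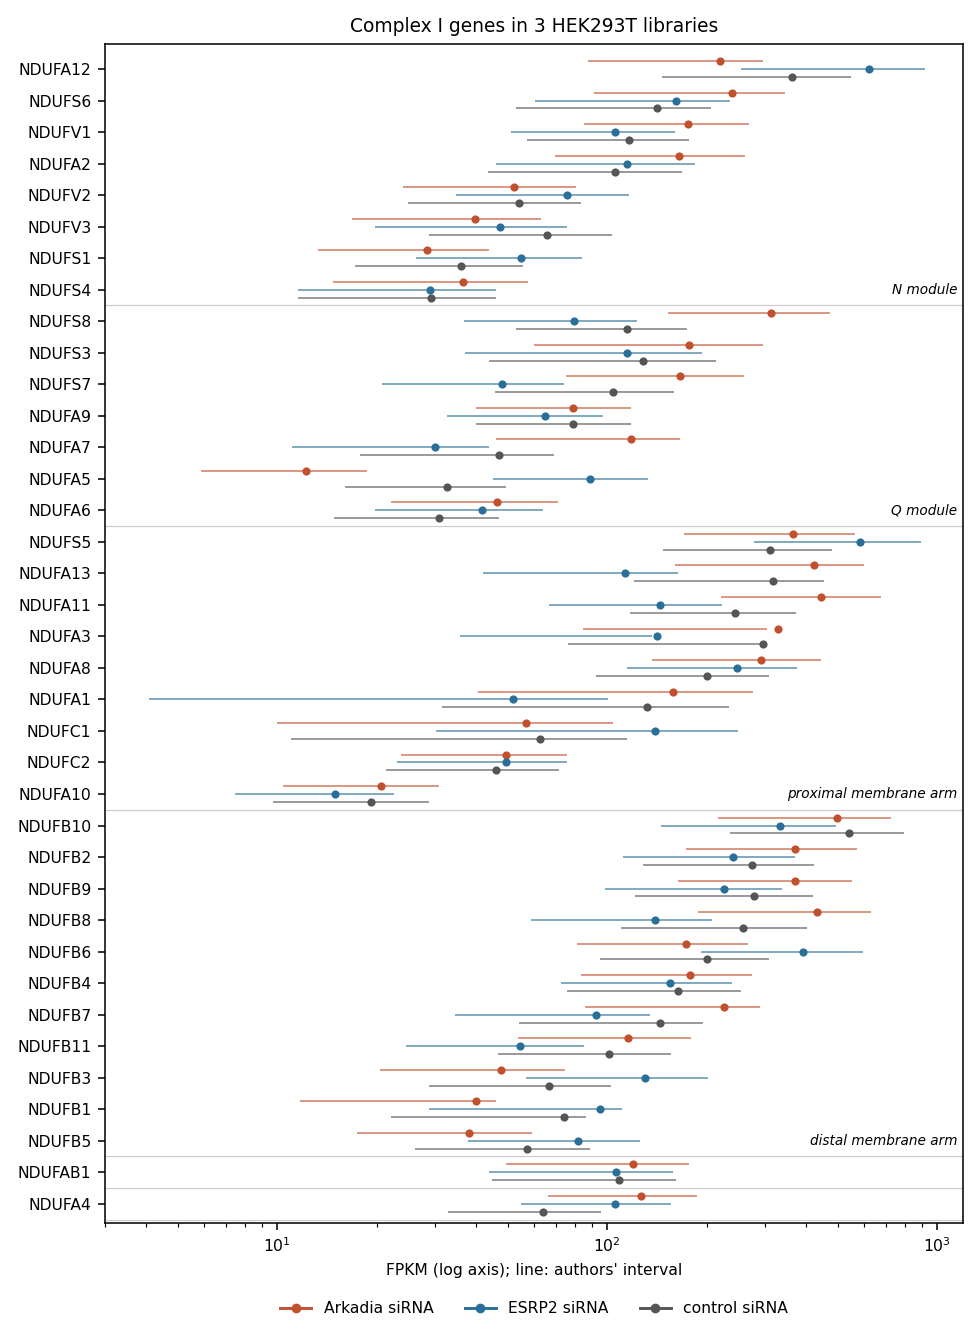
FPKM of 37 of the 38 complex I genes that entered the comparisons, on a log axis, grouped by position in the enzyme and ordered by mean level; points are the Arkadia, ESRP2 and control siRNA libraries and lines are the authors' intervals. Levels run from 12.2 FPKM (NDUFA5 with Arkadia siRNA) to 621 FPKM (NDUFA12 with ESRP2 siRNA), and the NDUFA3 points lie above their own intervals.

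Nuclear respiratory genes often carry sites for NRF1, for ETS factors such as GABPA and for YY1, so their promoters were searched on both strands for the NRF1 motif (the 10 letters in capitals in the NDUFA8 line below), for CCGGAAG (ETS) and for AAGATGGCG (YY1). RefSeq promoters on GRCh38.p14, from 250 bases before to 50 after the gene start, were matched for 35 of the 40 genes. The YY1 letters were in 5 of the 35 promoters (14.3%) and in 1.85% of all 27305 promoters, the NRF1 letters in 2 (5.71%) and 1.36%, and the ETS letters in 5 (14.3%) and 10.7%. All 5 YY1 matches lay on the gene's own strand within the first bases after the start, the motif beginning at positions 11 to 26. The NRF1 match began 4 bases before the start in NDUFA8 and 159 before it in NDUFB4. The YY1 letters also contain ATG, the letters of a start codon. Whether these matches are translation starts was not tested, so their share cannot be read as one of YY1 sites. These matches describe letters in a window and not bound sites, and the start in RefSeq need not be that of the isoform quantified.

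The 7 matches to the YY1 and NRF1 letters are shown with 10 bases on either side, 5′ to 3′ on the gene's strand, with the motif in capitals, so that the letters found can be read in place.
NDUFA6, chr22:42090729-42090757, minus strand: atgctttggcAAGATGGCGgggagcggcg
NDUFA7, chr19:8321343-8321371, minus strand: tcgcggacggAAGATGGCGtccgccaccc
NDUFA9, chr12:4649114-4649142, plus strand: attgtgggaaAAGATGGCGgctgccgcac
NDUFS4, chr5:53560650-53560678, plus strand: tgcctgcagcAAGATGGCGgcggtgtcaa
NDUFS7, chr19:1383914-1383942, plus strand: ggccgaggccAAGATGGCGgtgctgtcag
NDUFA8, chr9:122159764-122159793, minus strand: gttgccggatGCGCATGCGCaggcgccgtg
NDUFB4, chr3:120596167-120596196, plus strand: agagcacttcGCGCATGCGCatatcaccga

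The 250 bases before the start are shown for NDUFB7 and NDUFA12, a pair chosen after the values were seen: NDUFB7 was higher with Arkadia siRNA and lower with ESRP2 siRNA than with control siRNA, and NDUFA12 the reverse. None of these 4 differences passed 1.5-fold once the median of the gene's GC decile was subtracted, where NDUFB7 stood at 0.30 with Arkadia siRNA and -0.15 with ESRP2 siRNA, and NDUFA12 at -0.55 and 0.46. NDUFB7 holds an ETS match, in capitals, and NDUFA12 holds none of the 3 motifs. ETS matches were also in NDUFA1, NDUFA13 and NDUFS3, whose log2 ratios to control had the signs of NDUFB7. Another was in NDUFS1, whose ratios had the signs of NDUFA12. NDUFA7, NDUFA11, NDUFB8 and NDUFS7 also passed 1.5-fold in the directions of NDUFB7 and held no ETS match. Whether a match goes with the direction was not tested.
NDUFB7, chr19:14572067-14572316, minus strand: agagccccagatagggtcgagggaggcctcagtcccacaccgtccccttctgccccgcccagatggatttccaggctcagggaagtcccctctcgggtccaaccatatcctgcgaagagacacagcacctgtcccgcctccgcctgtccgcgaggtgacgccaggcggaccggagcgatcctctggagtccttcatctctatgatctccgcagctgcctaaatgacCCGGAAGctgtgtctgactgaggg
NDUFA12, chr12:95003698-95003947, minus strand: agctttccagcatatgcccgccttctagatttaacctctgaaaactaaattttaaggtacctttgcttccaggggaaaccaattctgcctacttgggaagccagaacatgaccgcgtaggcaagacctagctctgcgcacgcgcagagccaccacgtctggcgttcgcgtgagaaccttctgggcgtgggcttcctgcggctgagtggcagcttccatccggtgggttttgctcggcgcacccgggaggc

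With Arkadia siRNA, more complex I genes were higher than lower against control siRNA. At 1.5-fold on the scale log2((FPKM + 1)/(FPKM + 1)), which understates changes of low genes, 10 of 38 were higher (26.3%), 4 were lower (10.5%) and 24 were neither; among all 11870 genes 9.81% were higher and 11.8% lower. The median log2 ratio was 0.21 for the complex I genes and -0.02 for all genes. The highest ratios were those of NDUFS8 and NDUFA7 in the Q module, and the lowest that of NDUFA5 in the same module. None of the 14 had intervals apart from control, as 0.194% of all genes did upward and 0.244% downward. Past 2-fold were 2 higher and 1 lower complex I genes, beside 1.68% and 2.24% of all genes. After medians of transcript length deciles were subtracted the split was 6 higher and 6 lower, beside 9.22% and 11.1% of all genes.

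With ESRP2 siRNA the balance was the other way. Of the 38 genes 8 were higher than with control siRNA (21.1%), 10 were lower (26.3%) and 20 were neither, beside 19.9% higher and 11.4% lower among all genes. The median was -0.12 for the complex I genes and 0.12 for all genes. Rescaling by the median of ratios moved the median of all genes to 0.01, and gave 6 higher and 12 lower complex I genes, beside 14.5% and 15.5% of all genes. Rescaling to the upper quartile gave the same counts, beside 12.8% and 17.3% of all genes. The lowest ratios were those of NDUFA13, NDUFA1, NDUFS7 and NDUFA3, and the highest those of NDUFA5 and NDUFC1. No interval lay apart from control, as 0.868% of all genes did upward and 0.413% downward. Past 2-fold were 2 higher and 4 lower complex I genes, beside 5.45% and 2.42% of all genes.

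Set directly against each other, the libraries differed most. With Arkadia siRNA 14 of the 38 genes were higher than with ESRP2 siRNA (36.8%), 9 were lower (23.7%) and 15 neither, beside 21.2% higher and 30.8% lower among all genes. The median was 0.38 for the complex I genes and -0.14 for all genes. Intervals lay apart for NDUFA7, NDUFS8, NDUFS7 and NDUFA11, which were higher, and for NDUFA5, which was lower; 1.9% of all genes were higher and 4.47% lower in this way. Past 2-fold were 10 higher and 7 lower complex I genes, beside 8.9% and 15.5% of all genes. Rescaling by the median of ratios moved the median of all genes to 0.00, and gave 19 higher and 8 lower complex I genes, beside 26.2% and 25.2% of all genes. All 3 comparisons share libraries with one another, so none is a repeat of another.

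**Figure D2:**
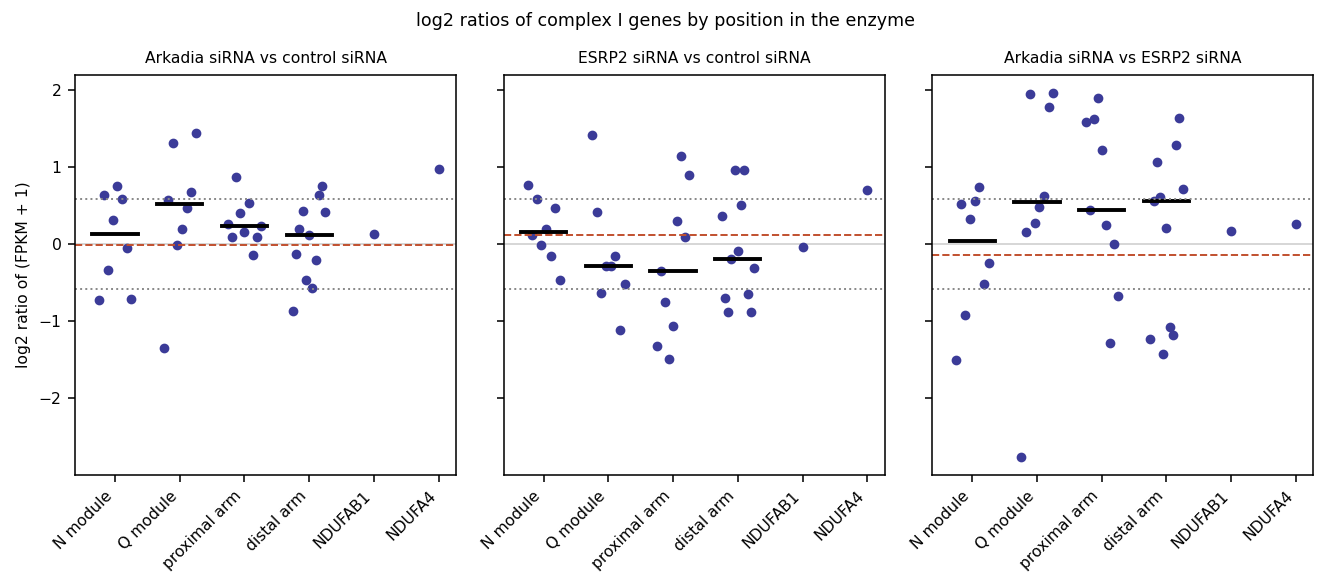
log2 ratio of (FPKM + 1) for each complex I gene in the 3 comparisons, by position in the enzyme; bars are group medians, the dashed line is the median of all 11870 genes and dotted lines mark 1.5-fold. In the Q module the median is 0.52 for Arkadia against control siRNA and -0.28 for ESRP2 against control siRNA. After the median of each gene's GC decile is subtracted, which is not drawn, they are 0.33 and -0.20.

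The N module takes electrons from NADH. Of its 8 genes, 3 were higher and 2 lower with Arkadia siRNA than with control siRNA, beside 9.81% and 11.8% of all genes. With ESRP2 siRNA 2 were higher and 0 lower than with control siRNA, beside 19.9% and 11.4% of all genes. NDUFV1, which binds the flavin and NADH, stood at 176 FPKM with Arkadia siRNA, 105 with ESRP2 siRNA and 117 with control siRNA, a log2 ratio of 0.59 with Arkadia siRNA, just past 1.5-fold. NDUFV2, an iron-sulfur subunit, was at 52.2, 75.4 and 54.1 FPKM in the same order and did not pass in either knockdown. Their partner NDUFS1, the largest iron-sulfur subunit, was at 28.4 FPKM with Arkadia siRNA, 54.7 with ESRP2 siRNA and 36.1 with control siRNA, and passed with ESRP2 siRNA by the same narrow margin (log2 ratio 0.59).

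Among the 5 accessory subunits of the N module, NDUFA12, NDUFS6, NDUFA2 and NDUFV3 passed 1.5-fold with Arkadia siRNA and NDUFA12 also with ESRP2 siRNA. NDUFA12, a paralog of the assembly factor NDUFAF2, was at 219 FPKM with Arkadia siRNA and 621 with ESRP2 siRNA, against 364 with control siRNA. It was thus lower with Arkadia siRNA (log2 ratio -0.73) and higher with ESRP2 siRNA (0.77), and the intervals of all 3 libraries overlapped. NDUFS6, a zinc-binding subunit, stood at 240, 162 and 142 FPKM in the Arkadia, ESRP2 and control siRNA libraries, and NDUFA2, of thioredoxin-like fold, at 165, 114 and 105 FPKM. Both passed 1.5-fold with Arkadia siRNA, at log2 ratios of 0.75 and 0.64, with intervals that overlapped control. NDUFV3, an accessory subunit made in a short and a long form, was lowest with Arkadia siRNA, at 39.6 FPKM, against 47.3 with ESRP2 siRNA and 65.7 with control siRNA, and NDUFS4 passed in neither.

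The Q module carries the last iron-sulfur cluster and the quinone site, and held the genes with intervals apart in the direct comparison, with NDUFA11 the exception. Of its 8 genes, 3 were higher and 1 lower with Arkadia siRNA than with control siRNA, beside 9.81% and 11.8% of all genes. With ESRP2 siRNA 1 was higher and 2 were lower than with control siRNA, beside 19.9% and 11.4% of all genes. NDUFS8 (chromosome 11, 67798084 to 67804114 on hg19), which binds iron-sulfur clusters, stood at 313 FPKM with Arkadia siRNA (154 to 472), against 79.5 with ESRP2 siRNA (37.0 to 122) and 114 with control siRNA (53.2 to 174). This was 2.73-fold control with Arkadia siRNA, the highest ratio of the 38, and 0.695-fold with ESRP2 siRNA. NDUFS7 (chromosome 19, 1383883 to 1395588), which carries the cluster next to ubiquinone, was at 167 FPKM (75.3 to 257) with Arkadia siRNA, 47.9 (20.9 to 73.5) with ESRP2 siRNA and 104 (46.1 to 158) with control siRNA. These core subunits were the only pair of the 7 with intervals apart between the Arkadia and ESRP2 siRNA libraries.

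NDUFS3, a core subunit of the matrix arm, stayed within 1.5-fold of control. It had 177 FPKM with Arkadia siRNA, 115 with ESRP2 siRNA and 128 with control siRNA. Over the 7 nuclear core subunits, 3 were higher (42.9%) and 0 lower with Arkadia siRNA, against control, beside 9.81% and 11.8% of all genes. With ESRP2 siRNA 1 was higher and 1 lower (14.3% each), beside 19.9% and 11.4% of all genes. Over the 30 accessory subunits 6 were higher and 4 lower with Arkadia siRNA, and 6 higher and 9 lower with ESRP2 siRNA. Of the 3 core genes higher with Arkadia siRNA, NDUFS8 still passed 1.5-fold after the GC decile median was subtracted, at 1.10. NDUFS7 at 0.33 and NDUFV1 at 0.25 did not.

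NDUFA5 and NDUFA7, accessory subunits of the Q module, stood at opposite ends. NDUFA5 (chromosome 7, 123181083 to 123197958 on hg19) was at 12.2 FPKM (5.90 to 18.6) with Arkadia siRNA, 88.5 (45.2 to 132) with ESRP2 siRNA and 32.7 (16.1 to 49.0) with control siRNA. It was the lowest of the 38 log2 ratios for Arkadia against control siRNA (-1.35) and the highest for ESRP2 against control siRNA (1.41), and the Arkadia siRNA level was 0.138 of the ESRP2 siRNA level. NDUFA7 (chromosome 19, 8376184 to 8386280) was at 118 FPKM (46.2 to 165), 30.05 (11.2 to 43.6) and 47.1 (17.9 to 68.6) in the Arkadia, ESRP2 and control siRNA libraries. Its ratio to control was 2.51 with Arkadia siRNA and 0.638 with ESRP2 siRNA. NDUFA5 has 12 named pseudogenes in GENCODE 29, so its value may depend on how similar reads were assigned, while NDUFA7 has none. NDUFA6 and NDUFA9, an NADPH-binding subunit, passed 1.5-fold in neither comparison with control.

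The proximal membrane arm joins the Q module to the pumps. Of its 9 genes, 1 was higher (11.1%) and 0 were lower with Arkadia siRNA, beside 9.81% and 11.8% of all genes. With ESRP2 siRNA 2 were higher (22.2%) and 4 lower (44.4%), beside 19.9% and 11.4% of all genes. NDUFA13, also known as GRIM-19, had the lowest log2 ratio of all 38 genes for ESRP2 against control siRNA (-1.49): it was at 113 FPKM (42.3 to 162) with ESRP2 siRNA and 319 (122 to 452) with control siRNA, and at 423 with Arkadia siRNA. NDUFA1, a small X-linked subunit, was at 158 FPKM (40.9 to 275) with Arkadia siRNA, 52.0 (4.12 to 100) with ESRP2 siRNA and 132 (31.8 to 232) with control siRNA. NDUFA3 was at 330, 141 and 297 FPKM in the same order, each above the upper bound of its own interval. NDUFA11, which resembles subunits of the mitochondrial protein import channels, was at 445, 144 and 244 FPKM and was the 1 gene of this arm higher with Arkadia siRNA, and one of the 4 lower with ESRP2 siRNA. The genes lower with ESRP2 siRNA were thus NDUFA13, NDUFA1, NDUFA3 and NDUFA11.

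The genes of this arm higher with ESRP2 siRNA were NDUFC1 and NDUFS5. NDUFC1, a small subunit with a single membrane helix, was at 56.8 FPKM with Arkadia siRNA, 139 with ESRP2 siRNA and 62.6 with control siRNA, a ratio of 2.23 for ESRP2 against control siRNA. NDUFS5, on the intermembrane side, was at 367, 583 and 312 FPKM in the same order. NDUFS5 has 6 named pseudogenes, NDUFA3 of the same arm has 5, and NDUFC1 shares its locus in the table with NAA15. Their values may therefore depend on read assignment, which was not tested. NDUFA8, NDUFA10 and NDUFC2 passed in neither comparison with control; NDUFC2 stood at 49.4, 49.2 and 46.1 FPKM.

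The distal membrane arm, built from the NDUFB subunits, had 2 of 11 genes higher (18.2%) and 1 lower (9.09%) with Arkadia siRNA. Among all genes 9.81% were higher and 11.8% lower. With ESRP2 siRNA 2 were higher (18.2%) and 4 lower (36.4%), beside 19.9% and 11.4% of all genes. NDUFB8, an accessory subunit with a single membrane helix, was at 433 FPKM with Arkadia siRNA, 139 with ESRP2 siRNA and 258 with control siRNA. NDUFB7, which like NDUFB10 faces the intermembrane space, was at 227, 92.6 and 145 FPKM in the same order. Both were higher with Arkadia siRNA (log2 ratios 0.75 and 0.64) and lower with ESRP2 siRNA (-0.88 and -0.64). NDUFB11, an X-linked gene, was at 116, 54.6 and 101 FPKM, and with NDUFB8, NDUFB7 and NDUFB10 it made up the 4 genes of this arm lower with ESRP2 siRNA.

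NDUFB6, NDUFB3 and NDUFB1, also accessory membrane subunits, were not lower with ESRP2 siRNA. NDUFB6 was at 173 FPKM with Arkadia siRNA, 391 with ESRP2 siRNA and 201 with control siRNA, and NDUFB3 at 47.8, 130 and 66.4 FPKM; both had a log2 ratio of 0.96 for ESRP2 against control siRNA. NDUFB1 was the 1 gene of this arm lower with Arkadia siRNA, with 40.0 FPKM against 74.0 with control siRNA, and was at 95.2 with ESRP2 siRNA. NDUFB2, NDUFB4, NDUFB5 and NDUFB9 passed in neither comparison with control, although NDUFB5, at a log2 ratio of -0.57 with Arkadia siRNA, lay just inside.

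NDUFAB1, the mitochondrial acyl carrier protein that sits in both arms and also serves lipoic acid and iron-sulfur cluster synthesis, stayed within 1.5-fold between libraries, with 119 FPKM with Arkadia siRNA, 106 with ESRP2 siRNA and 109 with control siRNA. NDUFA4, the complex IV gene matched by the rule, was at 127 FPKM (66.7 to 186) with Arkadia siRNA and 105 (55.2 to 155) with ESRP2 siRNA, against 64.0 (33.1 to 94.9) with control siRNA. Its log2 ratios to control were 0.97 and 0.71. Without NDUFA4 the counts of higher genes were 9 of 37 with Arkadia siRNA and 7 of 37 with ESRP2 siRNA.

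The direction in which a complex I gene differed went with the GC content of its transcript. GC content ran from 36.4% in NDUFA5 to 66.5% in NDUFS7 over the 38 genes. Spearman's rho between GC content and log2 ratio was 0.60 for Arkadia against control siRNA, -0.78 for ESRP2 against control siRNA and 0.83 for Arkadia against ESRP2 siRNA (38 genes, which share the same libraries and are not independent). Over 11760 genes with a GC value rho was 0.56, -0.64 and 0.76 in the same order. Transcript length went with the ratios less closely, with rho between -0.26 and 0.22 over the 38 genes.

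Split at the median GC content of 51.7%, the 38 genes gave 2 sets of 19, which are set beside all genes of the same GC range. The 19 genes with less GC had 1 higher and 3 lower with Arkadia siRNA, and 8 higher and 0 lower with ESRP2 siRNA, against control. The 19 with more GC had 9 higher and 1 lower with Arkadia siRNA, and 0 higher and 10 lower with ESRP2 siRNA. Among all genes in the GC range of the first set, 3.28% were higher and 17.0% lower with Arkadia siRNA, and 30.3% were higher and 2.36% lower with ESRP2 siRNA. In the GC range of the second set these shares were 19.0% and 3.10% with Arkadia siRNA, and 4.57% and 23.1% with ESRP2 siRNA. The split was chosen after the values were seen, and the part of GC content in the differences was not tested.

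After the median of the gene's GC decile was subtracted, 7 complex I genes were higher and 3 lower with Arkadia siRNA than with control siRNA, beside 6.34% and 7.02% of all genes on the same scale. With ESRP2 siRNA 4 were higher and 7 lower than with control siRNA, beside 9.21% and 7.7% of all genes. For Arkadia against ESRP2 siRNA 14 were higher and 5 lower, beside 12.4% and 14.1% of all genes. The medians were then 0.20, -0.08 and 0.43 in these comparisons, where all genes have a median of 0.

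Many single calls against control siRNA did not pass 1.5-fold on this scale. With Arkadia siRNA, 6 of the 10 higher genes still passed, among them NDUFA4 at 1.31, NDUFS8 at 1.10 and NDUFA7 at 1.06. The other 4 did not: NDUFA11 stood at 0.53, NDUFS7 at 0.33, NDUFB7 at 0.30 and NDUFV1 at 0.25. Of the 4 lower genes NDUFA5, NDUFB1 and NDUFV3 still passed and NDUFA12 did not, and NDUFA6 passed as higher on this scale only. With ESRP2 siRNA, NDUFC1 at 0.94, NDUFA5 at 0.81, NDUFS5 at 0.70 and NDUFB3 at 0.65 were the 4 of 8 higher genes that still passed. NDUFB6 at 0.55, NDUFA12 at 0.46, NDUFA4 at 0.19 and NDUFS1 at 0.18 did not. Of the 10 lower genes 6 still passed, the lowest being NDUFA1 at -1.22 and NDUFA13 at -1.15. NDUFA7 at -0.40, NDUFB10 at -0.36, NDUFA11 at -0.26 and NDUFB7 at -0.15 did not, and NDUFA9 passed as lower on this scale only. The 5 genes with intervals apart between the Arkadia and ESRP2 siRNA libraries all still passed 1.5-fold in that comparison.

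**Figure D3:**
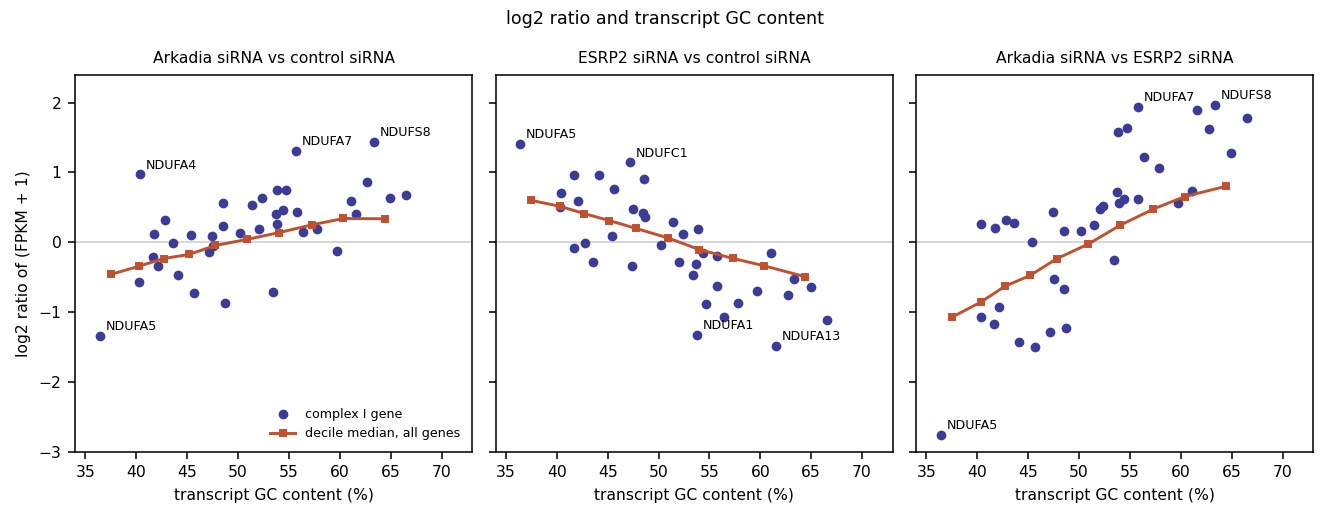
log2 ratio of (FPKM + 1) against transcript GC content (%) for the 38 complex I genes (points) and the medians of GC deciles over all genes (squares), in the 3 comparisons. The points follow the slope of all genes, upward for Arkadia against control siRNA and downward for ESRP2 against control siRNA; NDUFA5, at 36.4% GC, lies beyond the decile median in each panel.

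Isoform usage, the share of each RefSeq isoform in the gene's summed isoform FPKM, could be computed for 13 of the 14 members with at least 2 isoforms (5 FPKM or more over its isoforms in every library). A usage change, the share of expression that moved between isoforms, reached 0.25 for 2 genes with Arkadia siRNA and 2 with ESRP2 siRNA, against control, and for 4 between the Arkadia and ESRP2 siRNA libraries. Among all 3455 genes with usage, 17.1%, 20% and 26.3% did in the same comparisons, so these counts of 13 are close to the background. NDUFS1 changed most, by 0.84 with ESRP2 siRNA and 0.10 with Arkadia siRNA.

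The NDUFS1 isoform NM_005006 made up 85.0% of its expression with Arkadia siRNA and 5.92% with ESRP2 siRNA, against 90.0% with control siRNA. Its FPKM was 24.1 (10.3 to 38.1), 3.24 (0 to 10.2) and 32.5 (14.6 to 50.4) in these libraries, so the ESRP2 siRNA interval lay below both others. NM_001199984 was at 0.684 FPKM (0 to 2.94) with Arkadia siRNA, 29.5 (8.78 to 50.2) with ESRP2 siRNA and 1.64 (0 to 5.91) with control siRNA, again with the ESRP2 siRNA interval apart from both. It made up 53.9% of NDUFS1 with ESRP2 siRNA. These isoforms are 3473 and 3393 nt long and share most of their sequence, so the split rests on the reads that differ between them.

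NDUFC1 also differed most with ESRP2 siRNA, with a usage change of 0.59. Its isoform NM_001184990 made up 22.5% with Arkadia siRNA and 70.2% with ESRP2 siRNA, against 12.2% with control siRNA, while NM_001184987 made up 57.2%, 26.2% and 76.3%. NDUFS5 and NDUFB11 differed most with Arkadia siRNA, with usage changes of 0.43 and 0.31. The NDUFS5 isoform NM_004552 was at 40.2% with Arkadia siRNA, 65.9% with ESRP2 siRNA and 82.9% with control siRNA, and its partner NM_001184979 is 567 nt long beside 571 nt. The NDUFB11 isoform NM_019056 was at 65.7%, 26.0% and 34.4% in the same order. Intervals of single isoforms of NDUFC1, NDUFS5 and NDUFB11 overlapped between all libraries. NDUFV3 lay just under 0.25 with ESRP2 siRNA, at 0.22, and the other 8 genes lay at or under 0.14 in each comparison.

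**Figure D4:**
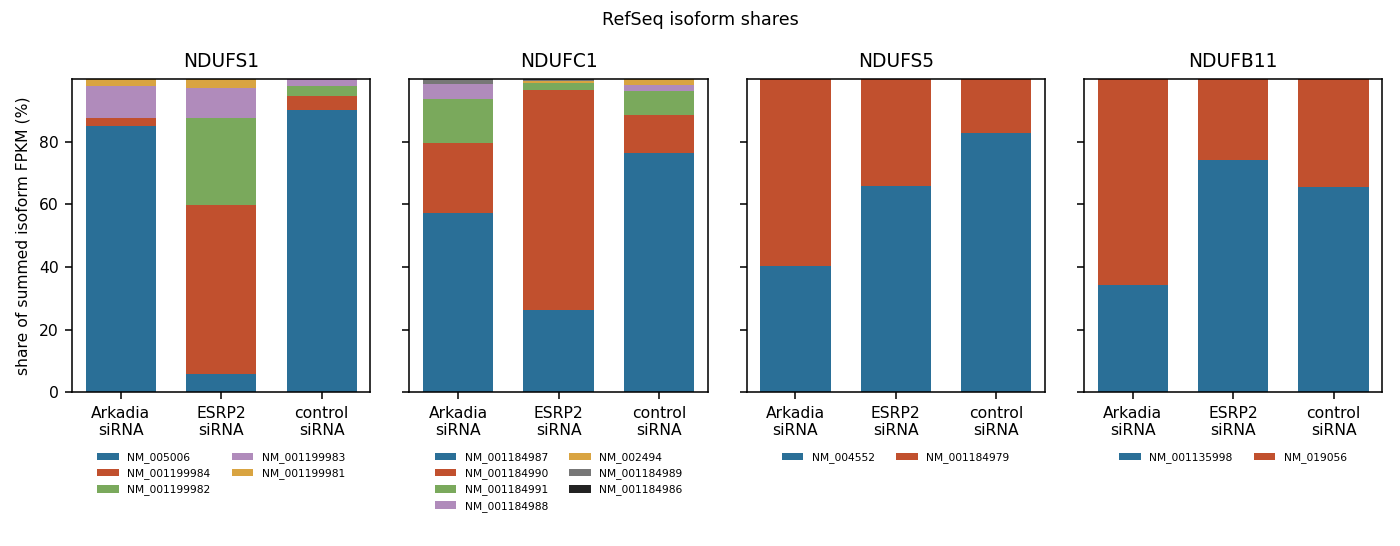
Share (%) of each RefSeq isoform in the summed isoform FPKM of NDUFS1, NDUFC1, NDUFS5 and NDUFB11 in the Arkadia, ESRP2 and control siRNA libraries, as stacked bars. In NDUFS1 the isoform NM_005006 takes 85.0%, 5.92% and 90.0%.

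Other genes of mitochondrial respiration are given for scale. Of 11 complex I assembly factors found in the table, 0 were higher and 2 lower (18.2%) with Arkadia siRNA than with control siRNA. With ESRP2 siRNA 1 was higher and 1 lower (9.09% each). Of 39 subunits of complexes II to V, 5 were higher and 5 lower with Arkadia siRNA (12.8% each). With ESRP2 siRNA 7 were higher (17.9%) and 5 lower (12.8%). Of 76 mitochondrial ribosomal protein genes, 20 were higher (26.3%) and 8 lower (10.5%) with Arkadia siRNA, the same shares as for the complex I genes. With ESRP2 siRNA 17 were higher (22.4%) and 11 lower (14.5%). Among all genes 9.81% were higher and 11.8% lower with Arkadia siRNA, and 19.9% and 11.4% with ESRP2 siRNA. For Arkadia against control siRNA the medians were 0.24, 0.18 and 0.17 for these lists, close to 0.21 for the complex I genes. For ESRP2 against control siRNA they were 0.08, 0.11 and 0.26 for the lists and -0.12 for the complex I genes. The medians for Arkadia against ESRP2 siRNA were -0.06, -0.01 and -0.01 for these lists and 0.38 for the complex I genes. The lists had median GC contents of 48.8%, 48.6% and 49.1% beside 51.7%. After GC subtraction the medians for Arkadia against ESRP2 siRNA were 0.25, 0.30 and 0.09 for the lists and 0.43 for the complex I genes. For ESRP2 against control siRNA they were then -0.03, -0.12 and 0.12 for the lists and -0.08 for the complex I genes. On that scale the complex I median was thus not the lowest. Whether complex I genes differ from these lists was not tested, as there are no replicates.

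Of 9 regulators of nuclear respiratory genes, 8 entered the comparisons. ESRRA, an orphan nuclear receptor, stood at 37.3 FPKM with Arkadia siRNA and 28.5 with ESRP2 siRNA, against 16.3 with control siRNA. TFAM, which packages mitochondrial DNA, was at 43.0, 113 and 51.8 FPKM in the same order, and GABPA at 9.41, 23.8 and 12.7 FPKM. YY1 was at 28.1 FPKM with Arkadia siRNA, 48.3 with ESRP2 siRNA and 43.5 with control siRNA, and NRF1 at 11.0, 6.30 and 7.15 FPKM. Of the 8, 3 were higher (37.5%) and 0 lower with ESRP2 siRNA than with control siRNA, beside 19.9% and 11.4% of all genes. With Arkadia siRNA 1 was higher and 1 lower (12.5% each), beside 9.81% and 11.8%. With ESRP2 siRNA 4 of the 8 lay above 0 and 4 below. Their median was -0.01, and -0.10 after GC subtraction. With Arkadia siRNA 3 of the 8 lay above 0 and 5 below, with a median of -0.23, and of 0.10 after GC subtraction.

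**Figure D5:**
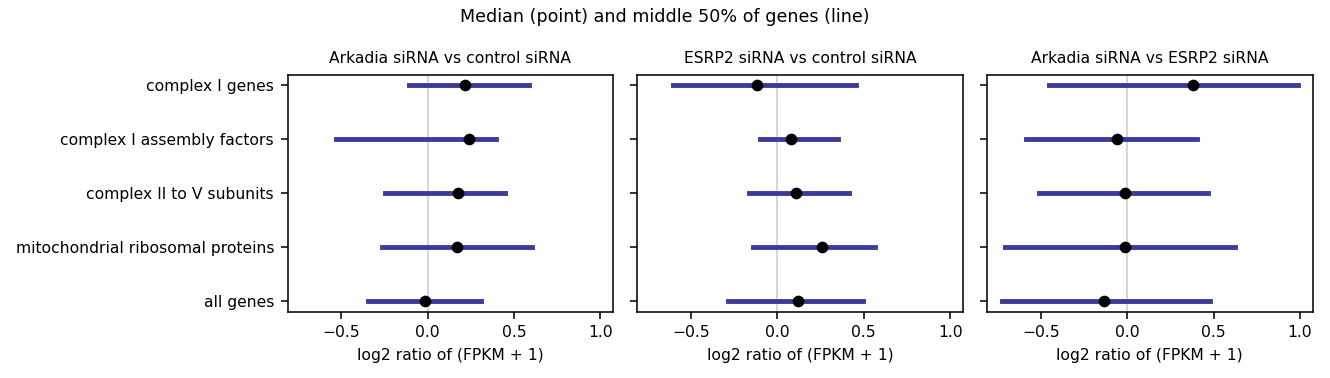
Median log2 ratio of (FPKM + 1) (points) and the middle 50% of genes (lines) for the complex I genes, complex I assembly factors, subunits of complexes II to V, mitochondrial ribosomal protein genes and all genes, in the 3 comparisons. The complex I median is 0.21 for Arkadia against control siRNA, -0.12 for ESRP2 against control siRNA and 0.38 for Arkadia against ESRP2 siRNA. For Arkadia against control siRNA the medians of the other mitochondrial lists are 0.24, 0.18 and 0.17.

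Some of these values may depend on how reads were divided, which was not tested. The 40 genes have 57 named pseudogenes in GENCODE 29, spread over 19 genes, with 12 each for NDUFA5 and NDUFB4. The locus of 9 of them is shared with another gene of the table, among them NDUFA1 with RNF113A, NDUFA2 with TMCO6, NDUFS3 with KBTBD4 and PTPMT1, and NDUFS8 with MIR4691; whether strand was used is not given in the sources used here. The FPKM implied between 155 and 3321 reads per gene with Arkadia siRNA, 224 and 4734 with ESRP2 siRNA and 242 and 4641 with control siRNA, which are upper estimates for short transcripts.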

How the data were processed

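Polyadenylated RNA of 3 HEK293T cultures was sequenced on an Ion semiconductor platform, as the labels' protocols state. The authors deposited FPKM with confidence bounds and a status per library. The submitters' processing notes name Cuffdiff, Cufflinks 2.1.1, TopHat2 2.0.10 and Bowtie2 2.1.0, and the build hg19. Order of use, scaling, level of the intervals and strand setting: not given in the sources used here. Isoform lengths are as deposited, per the file headers. Loci are given from 1 on hg19.

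log2((FPKM + 1)/(FPKM + 1)) was computed per gene with Python 3.11.15 and pandas 2.3.3, after the filter described with the results. The scripts were checked on simulated data. Reads were estimated from the FPKM times length of 1 read, the first peak over single-isoform genes of at least 3000 nt. Transcript GC content was read from GENCODE 29, by RefSeq accession and otherwise by symbol, for 99.1% of genes and all 38 that entered. Promoters came from RefSeq (GRCh38.p14) and were matched by symbol or synonym.

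Genes with values in every library are those past 1.5-fold against control in either knockdown, the 7 nuclear core subunits, the 3 highest and 3 lowest by mean level, and those with a usage change of at least 0.25. 1 gene is not reported here by name. NDUFAB1, NDUFC2, the rule matches that are not subunits and 5 regulators are outside this rule, and their values were added after they were seen. The members, gene lists and alternatives (pseudocount, filter, scaling, GC, length, isoform sums, members, fold, intervals) were chosen with earlier results of these data known.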

Additional observations from a re-analysis of the deposited data

How the results depend on the processing

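No paired analysis was possible because each group has 1 library, and no replicate could be left out. A threshold of 2-fold left 2 higher and 1 lower complex I genes for Arkadia against control siRNA, 2 higher and 4 lower for ESRP2 against control siRNA, and 10 higher and 7 lower for Arkadia against ESRP2 siRNA. Asking also for intervals that do not overlap left 0 higher and 0 lower in both comparisons with control, and 4 higher and 1 lower for Arkadia against ESRP2 siRNA. Subtracting GC decile medians moved the higher genes for ESRP2 against control siRNA to 4 and the lower genes for Arkadia against ESRP2 siRNA to 5, and subtracting length decile medians moved the higher genes for Arkadia against control siRNA to 6; the cause was not tested. The other counts stayed within 1.5 times their reported value under a pseudocount of 0.1, no filter on mean FPKM, both rescalings, isoform sums and the exclusion of the 3 genes that are not complex I subunits. The median log2 ratios kept their sign under each of these settings. Counts of usage changes were 2, 2 and 4 also at a summed FPKM of at least 20.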
